A study of Homo sapiens with 6 samples.

Results

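Readthrough genes are annotated genes whose transcripts run from one gene into the next and splice exons of both together. They were chosen by symbol in the deposited gene table of a poly(A) RNA-seq series, as names with exactly 1 hyphen in which the part before it and the part after it are each the name of another row. They were also selected on the measured level, which had to be above 0 FPKM in at least 1 of 4 libraries. FPKM, the deposited unit, scales fragments to transcript length and library total. Of 29489 genes, 2168 had a symbol with 1 hyphen and 97 met the rule. None of the 97 stood at 0 in all 4 libraries, so no candidate lay just outside the rule. The lowest just inside were FPGT-TNNI3K, which reached 0.0183 FPKM in its highest library, and ZNF286A-TBC1D26, which reached 0.0368 FPKM.

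The cells were of the established human line SU-DHL-4, grown from a diffuse large B-cell lymphoma, in a group named KD and a group named CON, with 3 samples labelled in each. The labels name no gene for KD, and neither the agent used for it nor the treatment of CON is named in the sources used here. The title of the series concerns the transcription factor ZHX2, ferroptosis and SLC3A2, and the stated purpose was to find enriched pathways. Libraries kept the strand of origin by dUTP marking, per the labels' protocols.

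The columns of replicate 1 were derived from the other columns: dividing the average of replicates 2 and 3 by 1.2 gave KD replicate 1 in all 29489 genes, and dividing it by 1.1 gave CON replicate 1 in 29488 (relative tolerance 1e-09). All comparisons therefore used replicates 2 and 3 (n = 2 per group). FPKM summed to 272992 and 273768 in KD and to 267854 and 267622 in CON, and read depth is unknown. ZHX2 stood at 11 and 11 FPKM in KD and at 38.5 and 36.7 FPKM in CON. The 7 B-cell markers reported, CD79A and PAX5 among them, lay between 38.8 and 377 FPKM in every library, whereas CD3E, CD14, LYZ and COL1A1 reached at most 0.239 FPKM. Separate cultures are not stated in the labels, and p-values thus reflect nothing but the spread among these libraries, which may be technical.

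As background, a readthrough transcript arises when RNA polymerase II passes the polyadenylation signal of an upstream gene without the transcript being cleaved, continues through the intergenic stretch, and the splicing machinery joins an exon of the upstream gene to an exon of the downstream gene. Some of the resulting messages encode a fusion of both proteins. Others meet a stop codon early and are substrates of nonsense-mediated decay, the surveillance pathway that degrades messages with premature stops. Readthrough is known to become more frequent when cleavage and termination factors are depleted or under osmotic stress and some viral infections.

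In the GENCODE v29 annotation (GRCh38), 89 of the 97 trios of readthrough, upstream and downstream gene could be placed, and all 89 lay on 1 strand. The readthrough gene overlapped both partners in 87 of them. Partners were separated by a median of 3589 bp (quartiles 902 and 11820 bp), with the largest separation, 102752 bp, between BLOC1S5 and TXNDC5, and 7 pairs of partners overlapped each other. A median of 36.3% of the exon bases of a readthrough gene lay in exons of the upstream gene, 52.1% in exons of the downstream gene and 3.24% in neither. In 27 trios every exon base of the readthrough was also a partner's exon base. Reads from shared exons belong to no one gene, so the level of a readthrough and those of its partners depend on how the authors' software divided them, and each such value is uncertain. Neither the annotation release nor the strand setting of that step is named in the sources used here.

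The feature that sets a readthrough transcript apart from its partners is the splice junction between them, and 80 of the readthrough genes had at least 1 annotated transcript that joins the genes directly, across an intron with a median length of 13670 bp. The junctions of the readthrough genes that the results below turn on are shown 5′ to 3′ in the sense of transcription, from the GENCODE v29 transcript sequences. Lower case marks the 15 bases of the readthrough transcript before the junction, and capitals mark the 15 bases after it. The exon before the junction overlaps an exon of the upstream gene, and the exon after it overlaps an exon of the downstream gene. Whether the bases shown themselves lie in partner exons was not checked.
RPL36A-HNRNPH2: attttccggaaaaagCTACACCAAAATTGC
P2RX5-TAX1BP3: ggcgcccggagctcgCAAAGAGTTGAAATT
RAB4B-EGLN2: gctctgtggagccagCCACCCTGAAGGGTC
MIA-RAB4B: gatgtgaagacagacACTTCCTCTTCAAAT
NME1-NME2: catacaagttggcagGACCATGGCCAACCT
ST20-MTHFS: gtctcccaggttcagGTGATTGCCCACAGT
MSANTD3-TMEFF1: acgcctcagcccaagAATTAAATGTGAGGG
CKLF-CMTM1: aagatgctgcggctgGATCTTACCAACAGT
ATP6V1G2-DDX39B: agcaagcagcaggcgACAGGCATTTTCCAA
KLRC4-KLRK1: aatgaggaagaaatgGTATGTGTGGGGACT
DNAJC25-GNG10: tacgagacactcaagGTCTCTCAGGCAGCT
SENP3-EIF4A1: ctgcaaactcactgtCCAGGGGAATCCTCC
The RPL36A-HNRNPH2 junction follows exon 3 of a transcript with 4 exons and spans chrX:101391822-101411936 on the plus strand. The P2RX5-TAX1BP3 junction follows exon 12 of 15 and spans chr17:3664798-3669058 on the minus strand. That of RAB4B-EGLN2 follows exon 7 of 12 (chr19:40786978-40800339, plus strand), and that of NME1-NME2 follows exon 5 of 9 (chr17:51161272-51166827, plus strand). SENP3 and EIF4A1 are joined after exon 10 of 21 across chr17:7571479-7572284 on the plus strand, and KLRC4 and KLRK1 after exon 1 of 10 across chr12:10391891-10407636 on the minus strand. Junction letters cannot be counted in FPKM values, and no junction reads were analysed here.

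Of 79 readthrough genes with an annotated stop codon, 36 had a transcript that ends at the stop codon of the downstream gene, 22 a transcript that ends at that of the upstream gene and 27 had neither. The authors' deposited table listed a nonsense-mediated decay transcript for 51 of the 97 and a protein-coding transcript for 50, with 14 listed under both and 10 under neither. NME1-NME2 is of the kind with the downstream stop, in 3 of 3 annotated transcripts, and joins 2 nucleoside diphosphate kinases. KLRC4-KLRK1 is of the other kind, with the stop codon of KLRC4 in 12 of 13 transcripts, all 12 annotated as targets of nonsense-mediated decay.

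Readthrough genes were mostly scarcer than their upstream gene. Their mean level over the 4 libraries had a median of 0.868 FPKM, against 6.49 FPKM for the upstream genes and 2.51 FPKM for the downstream genes. FPKM is scaled per transcript length, but these levels carry the uncertainty of shared exons given above. The readthrough was below its upstream gene in 75 trios, below its downstream gene in 58 and below both in 45, and it lay between them in 43. Only 7 readthrough genes averaged 10 FPKM or more, 40 averaged 1 to 10 FPKM and 50 averaged less than 1 FPKM. All 4 libraries were above 0 for 65 of the 97, and 8 had a value above 0 in 1 library alone. The 3 most abundant, NME1-NME2, SENP3-EIF4A1 and RPL17-C18orf32, held 34.6% of all readthrough FPKM and the top 10 held 54.5%.

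**Figure D1:**
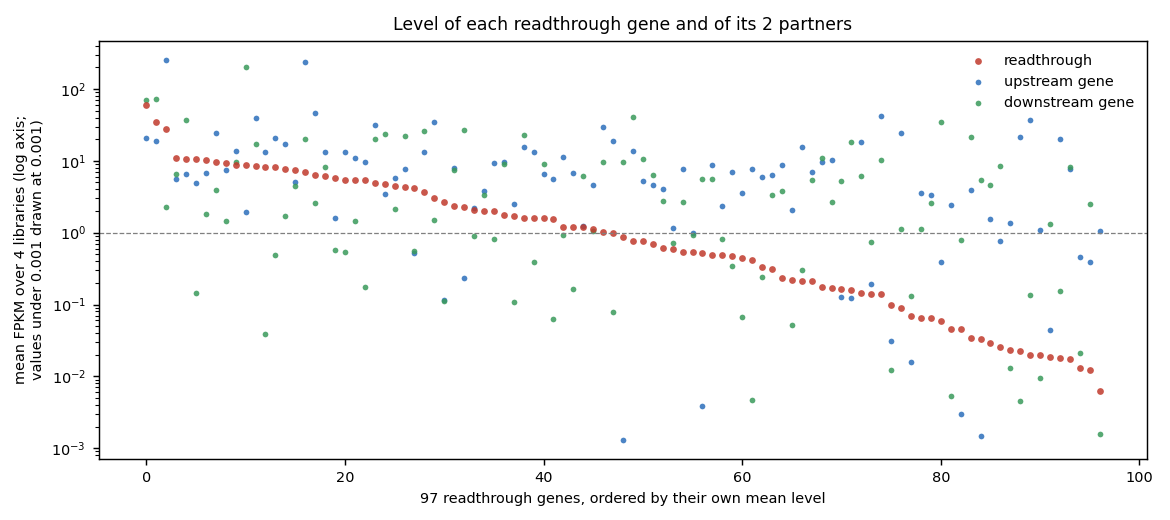
Mean FPKM over the 4 libraries (log axis) of the 97 readthrough genes in red, ordered by their own level, with the upstream gene in blue and the downstream gene in green in the same column. Readthrough levels run from 59.5 to 0.00616 FPKM, and the red points lie below both partners in 45 columns and above both in 9.

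In 9 trios the readthrough stood above both partners, CHKB-CPT1B at 11.1 FPKM, PKD1P6-NPIPP1 at 10.7, ANKHD1-EIF4EBP3 at 10.1, MSH5-SAPCD1 at 9.44 and KLRC4-KLRK1 at 7.34 FPKM being the highest of them. CHKB-CPT1B, which joins choline kinase beta to the muscle form of carnitine palmitoyltransferase 1, was at 11.8 and 13.3 FPKM in KD and at 7.42 and 11.8 FPKM in CON. CHKB stood at 4.43 and 5.13 FPKM in KD and at 7.05 and 5.39 FPKM in CON. The readthrough row was thus above the row of CHKB, the gene it starts in, in every library. The lower KD value and the higher CON value nearly met, and its log2 change of 0.39 did not pass the test (SE 0.203, limma adjusted p = 0.16).

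The summed level of the 97 readthrough genes was 349 and 283 FPKM in KD and 369 and 413 FPKM in CON. Both KD libraries were below both CON libraries. The means were 316 ± 47.2 FPKM in KD and 391 ± 31.7 FPKM in CON (SD, n = 2), and the two-sided p of an exact permutation test was 0.333, the lowest possible with 2 libraries a side. The upstream partners summed to 1279 and 1282 FPKM in KD and to 1448 and 1440 in CON, and the downstream partners to 762 and 810 FPKM in KD and to 1045 and 1015 in CON. All 3 sums were lower in both KD libraries, and a few genes held much of the difference in the partner sums. Without RPL17 and RPS10, chosen after their values were seen, the upstream sums were 854 and 851 FPKM in KD and 895 and 882 FPKM in CON. Without MEF2B, chosen likewise, the downstream sums were 625 and 678 FPKM in KD and 772 and 742 FPKM in CON. The readthrough share of the FPKM of the trios overlapped, at 14.6% and 11.9% in KD and 12.9% and 14.4% in CON (exact permutation p = 1, two-sided). The sum of KD replicate 2 held 94.5 FPKM of 1 gene, SENP3-EIF4A1, and without that gene the sums were 255 and 274 FPKM in KD and 351 and 396 FPKM in CON. Much of the difference in the readthrough sum lay in NME1-NME2, with means of 35.2 FPKM in KD and 83.8 FPKM in CON. With SENP3-EIF4A1 kept in, the separation of the readthrough sums depends on NME1-NME2. Both genes were singled out after their values were seen. The libraries are bulk RNA, so fewer cells with a transcript and less of it per cell cannot be told apart.

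Single readthrough genes were tested with limma on log2(FPKM + 1) in a fit over all 11916 genes that reached 1 FPKM in at least 2 of the 4 libraries. The filter passed 43 of the 97 readthrough genes. For genes with low values this scale makes a change look smaller than it is. In KD against CON, 12 of the 43 fell and 4 rose (Benjamini-Hochberg adjusted p under 0.05), and 19 had an unadjusted p under 0.05. Among the falls, RPL36A-HNRNPH2, RAB4B-EGLN2, CKLF-CMTM1 and MSANTD3-TMEFF1 passed the filter through their CON libraries alone. No rise passed it through KD alone. The place of these genes among the falls, and among the differences from partners below, is therefore not independent of the filter. The 16 called are 37.2%, below the 58.6% called among all genes tested. The share lower, 27.9%, was near the 31.1% of all genes, and the share higher, 9.3%, was below their 27.6%. The median log2 change of the 43 was -0.21, against -0.02 over all genes, with a median SE of 0.178 against 0.0659. KD and CON values did not overlap in 25 of the 43 (58.1%), 8 higher and 17 lower in KD, against 81.6% of all tested genes, 38.8% higher and 42.9% lower. The median change was -0.07 among 80 tested upstream partners, of which 12 rose and 24 fell, and -0.13 among 61 tested downstream partners, of which 10 rose and 22 fell. Without KD replicate 3, 7 readthrough genes rose and 15 fell, and the called share of 51.2% was above the 49.3% of all genes in that fit. With the replicate number as a block it was 48.8%, against 55.2% of all genes.

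RPL36A-HNRNPH2, which joins a protein of the large ribosomal subunit to an RNA-binding protein of splicing, showed the largest fall (ENSG00000257529, chrX:101391011-101412297, plus strand). It stood at 0.418 and 0 FPKM in KD and at 16.9 and 17.0 FPKM in CON. The groups lay far apart, and KD replicate 3 was listed at 0. It fell by 3.91 on the log2 scale (SE 0.172, limma adjusted p = 0.000189). Its upstream gene RPL36A stood at 37.9 and 37.7 FPKM in KD and at 41.9 and 41.2 FPKM in CON, a small fall of 0.13 on the log2 scale (limma adjusted p = 0.0141). HNRNPH2 stood at 16 and 18.3 FPKM in KD and at 17.7 and 15.5 FPKM in CON, so that its groups overlapped. All exon bases of this readthrough lie in partner exons, 47.9% in RPL36A and 52.1% in HNRNPH2. RPL36A has processed pseudogenes elsewhere in the genome, which adds to the uncertainty of its reads.

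P2RX5-TAX1BP3 joins an ATP-gated ion channel to a small PDZ-domain protein (ENSG00000257950, chr17:3663063-3696194, minus strand). It was at 1.73 and 2.13 FPKM in KD and at 7.81 and 7.77 FPKM in CON. The KD libraries were both below the CON libraries, and the log2 change was -1.59 (SE 0.086, limma adjusted p = 0.000292). P2RX5 stood at 29.3 and 27.1 FPKM in KD and at 34.4 and 33.0 FPKM in CON, a log2 change of -0.25 (limma adjusted p = 0.0113). TAX1BP3 went the other way, at 29 and 26.4 FPKM in KD and 13.8 and 10.4 FPKM in CON, and rose by 1.14 on the log2 scale (SE 0.135, limma adjusted p = 0.00226). Of the exon bases of this readthrough, 53.2% are in neither partner, one of 5 readthrough genes with more than 50% there.

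RAB4B-EGLN2 joins a small GTPase of endosome recycling to a prolyl hydroxylase of the hypoxia-inducible factor (ENSG00000171570, chr19:40778242-40808418, plus strand). It stood at 0.345 and 0.306 FPKM in KD and at 2.16 and 4.24 FPKM in CON, with no overlap, and fell by 1.62 on the log2 scale (SE 0.25, limma adjusted p = 0.0051). RAB4B was at 8.09 and 8.98 FPKM in KD and at 10.9 and 10.4 FPKM in CON, and EGLN2 at 9.02 and 8.99 FPKM in KD and at 9.79 and 8.68 FPKM in CON. The upstream gene was thus slightly lower in KD, with a log2 change of -0.29, and the downstream gene overlapped. RAB4B is also the downstream gene of MIA-RAB4B, the sole partner that 2 readthrough genes shared. MIA-RAB4B stood at 0.864 and 2.44 FPKM in KD and at 0 and 0.167 FPKM in CON, below the filter and therefore untested. The readthrough into RAB4B was higher in both KD libraries than in both CON libraries, and the readthrough out of RAB4B was lower.

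NME1-NME2, the most abundant readthrough gene (ENSG00000011052, chr17:51153590-51171744, plus strand), stood at 26.8 and 43.6 FPKM in KD and at 90.3 and 77.3 FPKM in CON. It fell by 1.26 on the log2 scale (SE 0.231, limma adjusted p = 0.00874). NME1 stood at 19.8 and 16.9 FPKM in KD and at 22.0 and 24.4 FPKM in CON, and NME2 at 66.3 and 63.3 FPKM in KD and at 74.2 and 75.4 FPKM in CON. Both partners fell too, by 0.33 and by 0.21 on the log2 scale. All exon bases of the readthrough are partner exon bases, and NME1 and NME2 resemble each other in sequence. The call of the readthrough was lost when no filter on low values was applied (limma adjusted p = 0.0629).

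ST20-MTHFS reaches into the gene of a folate-cycle enzyme, 5-formyltetrahydrofolate cyclo-ligase. It stood at 1.19 and 0.719 FPKM in KD and at 2.74 and 3.41 FPKM in CON, a log2 change of -1.07 (SE 0.157, limma adjusted p = 0.00441). ST20 stood at 2.78 and 2.52 FPKM in KD and at 5.58 and 4.09 FPKM in CON and fell by 0.67 on the log2 scale, while MTHFS was at 3.56 and 3.23 FPKM in KD and 3.45 and 3.27 FPKM in CON. The readthrough and the gene it starts in were lower in KD, and the gene it ends in overlapped. CKLF-CMTM1, which joins a chemokine-like factor to a MARVEL-domain protein of the same family, stood at 0.506 and 0.69 FPKM in KD and at 1.78 and 1.88 FPKM in CON (log2 change -0.83, SE 0.109, limma adjusted p = 0.00313). CMTM1 fell as well, at 0.455 and 0.379 FPKM in KD and 1.83 and 1.05 FPKM in CON (log2 change -0.77).

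MSANTD3-TMEFF1 stood at 0 and 0.829 FPKM in KD and at 2.12 and 1.82 FPKM in CON, a log2 change of -1.13 (SE 0.3, limma adjusted p = 0.0272). TMEFF1, the gene of a transmembrane protein with follistatin-like domains, was listed at 0 in 3 of the 4 libraries and at 0.647 FPKM in KD replicate 2, the library in which the readthrough was listed at 0. ABHD14A-ACY1, which extends into aminoacylase 1, stood at 0.45 and 1.1 FPKM in KD and at 2.69 and 2.11 FPKM in CON (log2 change -0.96, SE 0.208, limma adjusted p = 0.0148). The call of MSANTD3-TMEFF1 was lost without CON replicate 2 (log2 change -1.06) and without CON replicate 3 (-1.20), and that of ABHD14A-ACY1 without CON replicate 2 (-0.83). With 1 CON library left out, 42.1% and 42.4% of all genes were called, so fewer calls passed in these fits at large.

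ATP6V1G2-DDX39B runs from a subunit of the vacuolar proton pump into DDX39B, an RNA helicase of splicing and mRNA export. It stood at 8.34 and 8.53 FPKM in KD and at 11.9 and 14.2 FPKM in CON, a log2 change of -0.57 (SE 0.0848, limma adjusted p = 0.0045). DDX39B was slightly higher in KD, at 38.2 and 38.3 FPKM against 35.1 and 35.3 FPKM in CON (log2 change 0.12, limma adjusted p = 0.0197). With P2RX5-TAX1BP3 this is one of 2 readthrough genes that changed opposite to their downstream gene. The remaining falls were those of PDCD6-AHRR (log2 change -0.62), ARPC4-TTLL3 (-0.47) and STIMATE-MUSTN1 (-0.36). STIMATE-MUSTN1, which starts in the gene of a calcium-entry regulator of the endoplasmic reticulum, had close replicates, at 4.55 and 4.57 FPKM in KD and 6.15 and 6.13 FPKM in CON. The ARPC4-TTLL3 call, at a limma adjusted p of 0.0488, was lost in 8 of 14 alternatives, among them those without CON replicate 2 (log2 change -0.57), without CON replicate 3 (-0.37) and without KD replicate 2 (-0.27). The PDCD6-AHRR call was lost without CON replicate 3 (-0.56).

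Among the 4 that rose, KLRC4-KLRK1, which joins genes of lectin-like receptors of natural killer cells, changed most (ENSG00000255819, chr12:10372353-10410146, minus strand). It stood at 10.1 and 9.96 FPKM in KD and at 5.25 and 4.05 FPKM in CON, with no overlap, and rose by 0.97 on the log2 scale (SE 0.109, limma adjusted p = 0.00196). KLRC4 rose with it, at 7.69 and 6.75 FPKM in KD and 2.68 and 2.98 FPKM in CON (log2 change 1.10). KLRK1, which encodes the activating receptor NKG2D, overlapped, at 3.28 and 6.08 FPKM in KD and 3.84 and 4.38 FPKM in CON. DNAJC25-GNG10, which joins an HSP40-type co-chaperone to a G protein gamma subunit, stood at 6.85 and 5.66 FPKM in KD and at 3.75 and 2.88 FPKM in CON (log2 change 0.75, SE 0.133, limma adjusted p = 0.00769). DNAJC25 rose with it (log2 change 0.92), at 4.44 and 5.3 FPKM in KD and 2.13 and 2.07 FPKM in CON, and GNG10 overlapped at 22.1 and 26.5 FPKM in KD and 22.5 and 24.5 FPKM in CON. In both, the readthrough moved with the gene it starts in. The DNAJC25-GNG10 call was lost with no filter on low values (limma adjusted p = 0.0531).

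JMJD7-PLA2G4B, which joins a lysyl hydroxylase to a cytosolic phospholipase A2, rose by 0.40 on the log2 scale (limma adjusted p = 0.0105), at 7.07 and 6.27 FPKM in KD and 5.02 and 4.6 FPKM in CON. PDXDC2P-NPIPB14P, formed by 2 pseudogenes, rose by 0.32 (limma adjusted p = 0.0271), at 3.34 and 2.9 FPKM in KD and 2.33 and 2.28 FPKM in CON. Near-identical copies of both pseudogenes exist elsewhere on the chromosome, so its level is uncertain. The JMJD7-PLA2G4B call was lost without CON replicate 3 (log2 change 0.35), and the PDXDC2P-NPIPB14P call without CON replicate 2 (0.33), without CON replicate 3 (0.31) and without KD replicate 2 (0.24).

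**Figure D2:**
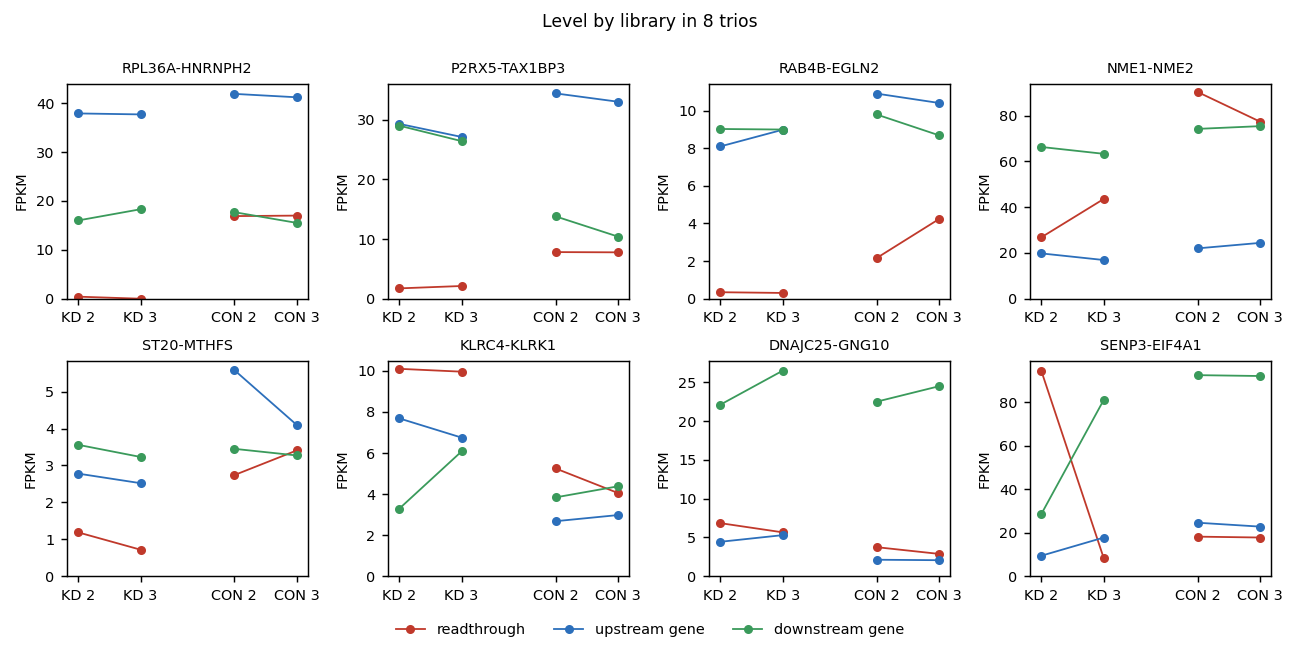
FPKM by library in 8 trios, with KD replicates 2 and 3 left of CON replicates 2 and 3; red is the readthrough, blue the upstream and green the downstream gene, and lines join the replicates of a group. RPL36A-HNRNPH2 is at 0.418 and 0 FPKM in KD while RPL36A is at 37.9 and 37.7 FPKM there, and SENP3-EIF4A1 differs more between its KD replicates (94.5 and 8.19 FPKM) than between groups.

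Read against their partners, readthrough genes and upstream genes that both passed the test changed in the same direction in 9 of 9 cases. For downstream genes it was 2 of 4. Among the 40 trios with both tested, the readthrough alone was called in 6 and the upstream gene alone in 7, and neither in 18. Among the 28 with readthrough and downstream gene tested, the readthrough alone was called in 7, the downstream gene alone in 8 and neither in 9. Shared exons tie these values together, and their part in the counts was not tested. Of all tested genes 58.6% were called. The same counts were not made for other pairs of neighbouring genes, so they cannot be called particular to readthrough genes.

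Whether a readthrough moved by a different amount from its partner was tested on the within-library log2 difference of the 2 genes, fitted together with that of neighbouring genes on the same strand, 11515 pairs in all. Of 68 differences between a readthrough and a partner, 12 were lower in KD and 2 higher, and 19 had an unadjusted p under 0.05. These 14 are 20.6%, against 53.1% over all pairs; 17.6% were lower, against 26.5%, and 2.94% higher, against 26.6%. The median difference was -0.37, against -0.01 among 11396 neighbour pairs, and 49 of the 68 were negative, with a median SE of 0.28 against 0.103. Between the upstream and the downstream partner, 9 of 51 differences were higher and 9 lower, with a median of -0.01. The count grew to 22 lower and 7 higher without KD replicate 3, and to 20 lower and 4 higher without KD replicate 2. Without CON replicate 3 it was 10 lower and 5 higher. With no filter on low values 194 differences were tested, a larger set than the 68, and 12 were lower and 13 higher. The excess of lower differences was not present in that set. In that setting 18.5% of all genes were called, against 58.6% in the main fit, and the share over all pairs is not given.

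Called differences belonged to 11 readthrough genes, and 3 of these differed from both partners. RPL36A-HNRNPH2 fell against RPL36A by 3.78 on the log2 scale (SE 0.173, limma adjusted p = 0.000368) and against HNRNPH2 by 3.95 (SE 0.241, limma adjusted p = 0.000654). P2RX5-TAX1BP3 fell against P2RX5 by 1.34 (SE 0.12, limma adjusted p = 0.0015) and against TAX1BP3 by 2.73 (SE 0.176, limma adjusted p = 0.000733). RAB4B-EGLN2 fell against RAB4B by 1.32 (SE 0.277, limma adjusted p = 0.015) and against EGLN2 by 1.59 (SE 0.301, limma adjusted p = 0.0111). In these trios the readthrough was the member that moved most. The RAB4B difference was lost without KD replicate 3, at -1.23, and with no filter on low values.

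The other called differences each concerned 1 partner. ST20-MTHFS fell against MTHFS (log2 difference -1.08), NME1-NME2 against NME2 (-1.06), ABHD14A-ACY1 against ACY1 (-0.93) and ATP6V1G2-DDX39B against DDX39B (-0.69). MSANTD3-TMEFF1 fell against MSANTD3 (-1.07) and PDCD6-AHRR against PDCD6 (-0.50). In the other direction, RBM14-RBM4, which joins genes of RNA-binding proteins, moved up against RBM14 (0.44) and DNAJC25-GNG10 against GNG10 (0.71). RBM14-RBM4 itself stood at 9.03 and 10.4 FPKM in KD and at 7.13 and 8.4 FPKM in CON, and its log2 change of 0.29 did not pass the test (limma adjusted p = 0.057). The differences of NME1-NME2, ABHD14A-ACY1, MSANTD3-TMEFF1, PDCD6-AHRR and DNAJC25-GNG10 were lost without CON replicate 2 and without CON replicate 3. Without KD replicate 2 those of PDCD6-AHRR and DNAJC25-GNG10 were lost, and that of RBM14-RBM4 was lost without CON replicate 2 and without KD replicate 3. With no filter on low values, the differences of NME1-NME2, ABHD14A-ACY1, MSANTD3-TMEFF1, PDCD6-AHRR, DNAJC25-GNG10 and RBM14-RBM4 were all lost. The MSANTD3-TMEFF1 difference was also lost with pseudocounts of 0.1 and 0.5 and with quantile scaling, and that of DNAJC25-GNG10 without the variance trend.

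**Figure D3:**
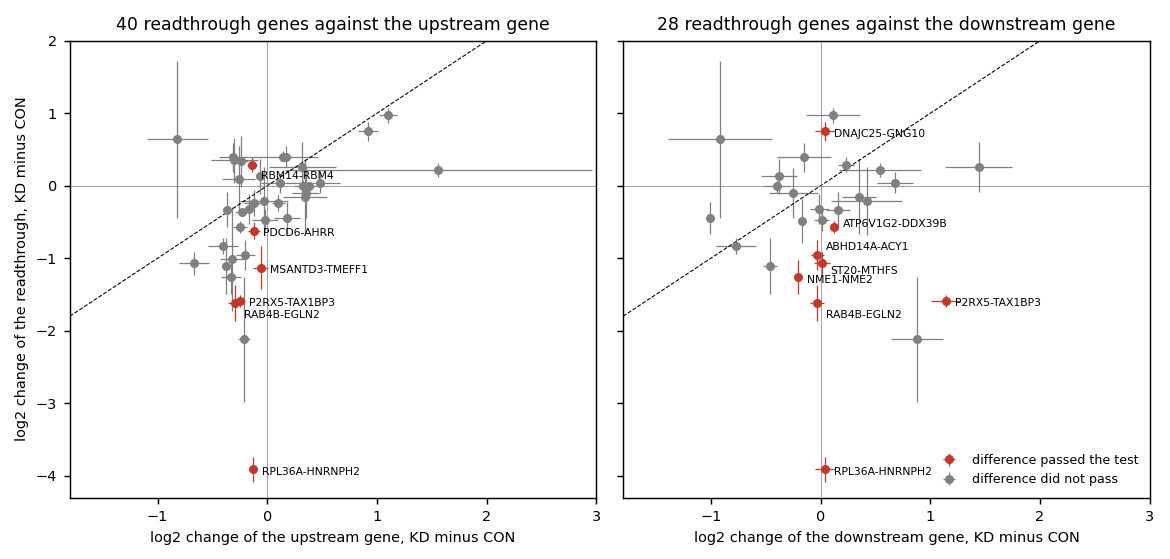
Log2 change, KD minus CON, of each tested readthrough gene (vertical) against that of its upstream gene (left panel, 40 trios) or downstream gene (right panel, 28 trios), with SE bars; the dashed line marks equal change and red points are called differences between the 2 genes. Of the 14 red points, 12 lie below the line, RPL36A-HNRNPH2 lowest in both panels at -3.91.

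Over all 97, both KD libraries were above both CON libraries in 19 and below them in 32. That is 51 of 97, against 55.1% of all 29489 genes, of which 25.8% lay above and 29.3% below. Of the 54 below the filter, 11 lay above and 15 below. Listed at 0 in both KD libraries were 12 readthrough genes, and in both CON libraries 3. The share of all genes listed so was not computed, and these members met the rule through the other group alone. Several were near the floor there, such as C1QTNF3-AMACR at 0 and 0.0495 FPKM in CON and TNFSF12-TNFSF13 at 0 and 0.18 FPKM in KD. The following values were chosen after they were seen. BLOC1S5-TXNDC5, which spans the widest gap of all trios and ends in a protein disulfide isomerase gene, was listed at 0 and 0 FPKM in KD and at 0.564 and 16.6 FPKM in CON. INO80B-WBP1, which starts in the gene of a chromatin remodeller subunit, was listed at 0 and 0 FPKM in KD and at 0.838 and 13.7 FPKM in CON. In each case nearly the whole signal was in CON replicate 3. In that library INO80B stood at 5.78 FPKM, against 14.4 FPKM in CON replicate 2 and 16 and 16.3 FPKM in KD, and TXNDC5 at 15.4 FPKM, against 26.4 FPKM in CON replicate 2 and 24.1 and 21.3 FPKM in KD.

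Replicates of a group differed more for readthrough genes than for other genes. The distance between replicates 2 and 3 on the log2(FPKM + 1) scale, averaged over KD and CON, had a median of 0.3 in the 43 tested readthrough genes, against 0.0754 in all 11916 tested genes, 0.103 in upstream and 0.144 in downstream partners. A distance of at least 1 in KD or in CON, a 2-fold gap on that scale, occurred in 8 of the 43 readthrough genes (18.6%) and in 122 of all genes (1.02%). Among genes with a mean of 5 FPKM or more it was 6 of 23 readthrough genes (26.1%) and 35 of 6983 genes (0.501%), so the gap was not limited to low levels. These are descriptions of 2 libraries per group, with no test.

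**Figure D4:**
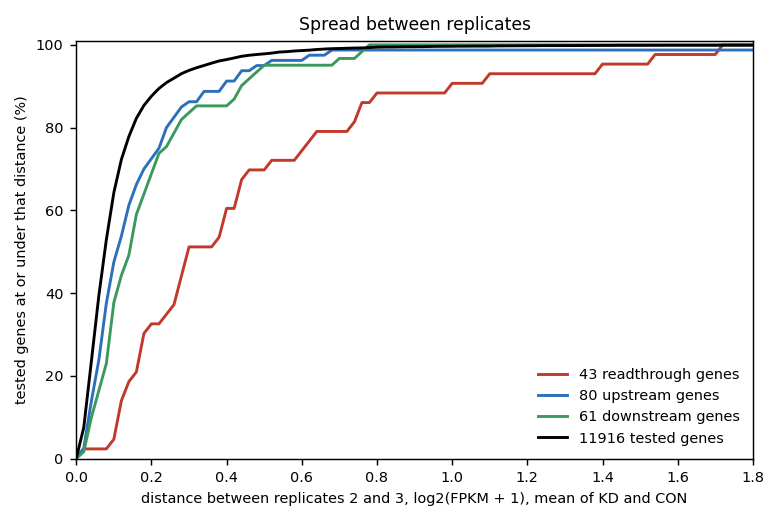
Share of tested genes (vertical, %) whose mean distance between replicates 2 and 3 is at or under the value on the horizontal axis, log2(FPKM + 1). The curve of the 43 readthrough genes lies to the right of those of the 80 upstream genes, 61 downstream genes and all 11916 genes, with medians of 0.3, 0.103, 0.144 and 0.0754.

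SENP3-EIF4A1 had the largest distance between replicates among the 43 tested. It joins a protease of the SUMO pathway to the RNA helicase EIF4A1 of translation initiation (ENSG00000277957, chr17:7563287-7578715, plus strand), and stood at 94.5 and 8.19 FPKM in KD and at 18.2 and 17.8 FPKM in CON. EIF4A1 was at 28.5 and 81.1 FPKM in KD and at 92.4 and 92.0 FPKM in CON, and SENP3 at 9.41 and 17.8 FPKM in KD and at 24.6 and 22.8 FPKM in CON. In KD replicate 2, where the readthrough was high, both partners were at their lowest. Its log2 change of 0.64 (SE 1.08, limma adjusted p = 0.638) did not pass the test, and without KD replicate 2 it was -1.04 (limma adjusted p = 0.00181), so 1 library sets its direction. Of its exon bases, 42.9% are in SENP3 exons and 45.1% in EIF4A1 exons.

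The same opposition was present in other trios. In all 8 readthrough genes with a 2-fold gap in 1 group, the gap of the upstream gene between those replicates had the opposite sign, and that of the downstream gene did in 5. Signs alone were counted, and sizes varied. On the log2(FPKM + 1) scale, RPS10 had the smallest upstream gap, -0.04 against 1.15 for RPS10-NUDT3. SLX1A had the largest, 0.93 against -1.07 for SLX1A-SULT1A3. HNRNPUL2-BSCL2, which ends in the gene of the lipid droplet protein seipin, stood at 0 and 5.37 FPKM in KD and at 8.61 and 11.6 FPKM in CON, while BSCL2 stood at 4.84 and 2.61 FPKM in KD and at 1.63 and 1.37 FPKM in CON. PMF1-BGLAP stood at 7.06 and 0.842 FPKM in KD and at 5.21 and 8.66 FPKM in CON, while PMF1, a kinetochore protein gene, stood at 10.2 and 13.0 FPKM in KD and at 15.3 and 14.1 FPKM in CON. Both were chosen after their values were seen, and neither log2 change passed the test (-2.12 and -1.01).

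Over all tested pairs, replicate 2 minus replicate 3 had opposite signs in readthrough and upstream gene in 30 of 40 trios in KD and 29 of 40 in CON, and in readthrough and downstream gene in 21 of 28 in KD and 15 of 28 in CON. Between the upstream and the downstream partner, signs were opposite in 21 of 51 trios in KD and in 21 of 51 in CON. Spearman's rho across trios between readthrough and upstream gene was -0.71 in KD and -0.51 in CON (n = 40; Pearson's r -0.68 and -0.19), and between readthrough and downstream gene -0.73 in KD and -0.22 in CON (n = 28; r -0.74 and -0.26). The points of a trio share libraries and exons, so these values are given without a p. The size of a readthrough's replicate gap was larger where more of its exon bases were partner exon bases, with a Spearman's rho of 0.47 across 40 genes, again as a description.

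**Figure D5:**
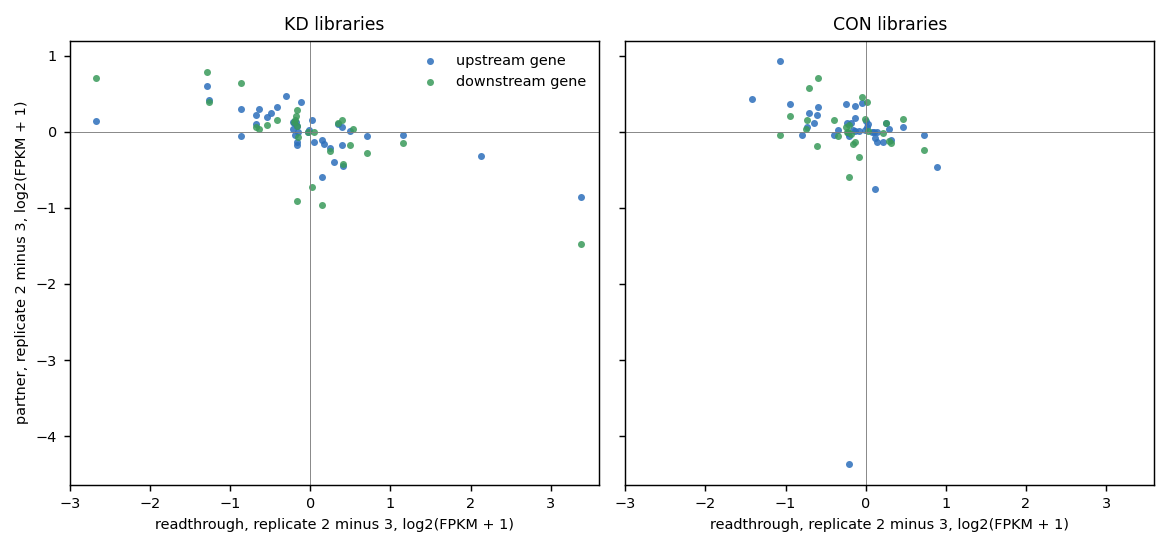
Replicate 2 minus replicate 3, log2(FPKM + 1), of tested readthrough genes (horizontal) against that of their upstream (blue, 40) and downstream (green, 28) genes, KD libraries left and CON libraries right. In KD 30 of 40 blue and 21 of 28 green points lie where the signs differ; the lowest blue point in CON is BOLA2, which was listed at 0 FPKM in CON replicate 2 and at 19.7 FPKM in CON replicate 3.

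Readthrough genes with a listed nonsense-mediated decay transcript and those without one were counted apart. Of 23 tested with one, 2 rose and 6 fell, and of 20 tested without one, 2 rose and 6 fell, against 27.6% and 31.1% of all genes. By reading frame, 2 rose and 7 fell among 16 tested genes that can end at the downstream stop codon, and 1 rose and 4 fell among 21 that cannot. The difference between these classes was not tested.

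The factors that end transcription and remove readthrough messages were examined from 3 lists. Of 20 tested cleavage and polyadenylation factors, 2 rose and 11 fell, against 27.6% and 31.1% of all genes; their median change was -0.17 (log2). CSTF2T, the tau form of the cleavage stimulation factor subunit that binds the RNA downstream of the cleavage site, stood at 4.33 and 4.04 FPKM in KD and at 10.1 and 9.92 FPKM in CON, a log2 change of -1.09 (SE 0.055, limma adjusted p = 0.000246). RBBP6, a cleavage factor with a ubiquitin ligase domain, rose by 0.90 (SE 0.0385, limma adjusted p = 0.000176), at 19.1 and 19.5 FPKM in KD and 9.83 and 9.94 FPKM in CON. PABPN1, the nuclear poly(A)-binding protein, and CPSF4, a subunit that binds the polyadenylation signal, fell by 0.37 and by 0.42. Of the 11 that fell, CSTF2T alone moved by more than 1 on the log2 scale.

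Of 19 tested factors of termination and elongation control, 4 rose and 8 fell, and the median change was -0.01 (log2), with 27.6% and 31.1% of all genes called in these directions. SUPT4H1 and SUPT5H, the 2 subunits of the elongation factor DSIF, changed in opposite directions (log2 changes of -0.74 and 0.42). RPRD2, which binds the tail of RNA polymerase II, and ZC3H4, a restrictor of extragenic transcription, fell by 0.58 and by 0.48. Of 14 tested factors of nonsense-mediated decay, 4 rose and 5 fell, shares close to those of all genes, and the median change was -0.09 (log2). RBM8A and MAGOH, which form the core of the exon junction complex with EIF4A3, fell by 0.76 and by 0.74, whereas EIF4A3 rose by 0.60, and UPF2 rose by 0.53. Without CON replicate 2, 13 members of the 3 lists fell, against 24 with all 4 libraries, while the share of all genes called was 42.1%, against 58.6%.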

How the data were processed

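The authors deposited one table with FPKM per gene for 6 samples, per the file headers. Tools named are edgeR, StringTie, HISAT2 and fastp with build GRCh38, per the submitters' processing notes, without versions or roles. FPKM keep no read totals, so depth and counting error are unknown. Columns were mapped by sample title. Replicates 2 and 3 of KD and CON, 4 libraries, entered each comparison.

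All genes that reached 1 FPKM in 2 or more libraries entered a limma 3.58.1 fit (R 4.3.3) of log2(FPKM + 1), with KD or CON as term and the trend of variance on level. Tests were two-sided, adjusted by Benjamini-Hochberg over all 11916 genes at 0.05. Residual degrees of freedom were 2 and prior ones 2.85. The second fit took the within-library difference between readthrough and partner, with all neighbouring tested genes on a strand (prior degrees of freedom 2.82). Summed levels were compared by exact permutation (scipy 1.17.1). Where a partner name stood in 2 rows, the row with the higher mean was used (3 names). Structures and junctions came from GENCODE v29. In 10 simulations with 200 changed genes among 11916, 49.5% of 1.5-fold and 76.4% of 2-fold changes were recovered and 3.5% of calls were false. For 11482 pairs the shares were 29.8%, 70% and 4.56%. In the data 58.6% of genes were called, far more than were changed in the simulations. The median SE was 0.178 in readthrough genes, against 0.0659 in all genes. These shares therefore cannot be carried over to the readthrough genes.

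Named readthrough genes were the 10 highest, up to 8 called rises and 8 called falls, up to 6 with a called difference opposite to a partner or largest in size, and 4 called genes per factor list. Others are said to be chosen after their values were seen, or complete a count in the text. Members, lists and tests were chosen with earlier results of these data known. In all, 14 alternatives were run. A further B-cell marker is not reported here.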

Additional observations from a re-analysis of the deposited data

How the results depend on the processing

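Readthrough falls numbered 12 and rises 4. With a mean of at least 5 FPKM there were 6 falls among 23 tested, with 68.5% of all genes called. With no filter there were 2 rises among 97, with 18.5% of all genes called. With all 6 columns there were 21 falls and 10 rises among 43, or 72.1%, against 53.9% of all genes. The replicate 1 columns in that fit were derived from replicates 2 and 3, so its columns are not independent. Called differences, 12 lower and 2 higher of 68, became 5 and 1 of 29 with a mean of at least 5 FPKM. They became 26 and 6 of 68 with all 6 columns. With no filter 13 of 194 were higher and 12 lower, and without the variance trend 1 of 68 was higher. The rises among the factor lists numbered 10, and 6 with all 6 columns. Leaving out 1 replicate gave 4 to 7 rises, 10 to 15 falls, 2 to 7 differences higher and 10 to 22 lower, and 8 to 12 listed factors higher and 13 to 21 lower. In those fits fewer of all genes were called than the 58.6% of the main fit, and shares over all pairs are not given. With 1 replicate left out, the summed level differed by -109 to -41.8 FPKM.

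The correlation of replicate 2 minus 3 between groups was 0.12 over readthrough genes and 0.00 over all genes, so little shift by replicate number was shared between KD and CON. These values cannot show whether the libraries were prepared in pairs. The replicate block gave 5 differences higher and 16 lower, and 6 rises and 15 falls.

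Directions reversed for 6 uncalled genes. Median-ratio scaling gave 0.01 for MSH5-SAPCD1 and 0.02 for PKD1P6-NPIPP1. Leaving out 1 replicate gave -0.17 to 0.25 for ANKHD1-EIF4EBP3, -0.1 to 0.08 for MSH5-SAPCD1, -0.07 to 0.05 for PKD1P6-NPIPP1, -0.53 to 0.34 for RNASEK-C17orf49, -0.69 to 0.04 for RPL17-C18orf32 and -1.04 to 2.33 for SENP3-EIF4A1. The cause was not tested. The calls of RPL36A-HNRNPH2, P2RX5-TAX1BP3, RAB4B-EGLN2, ST20-MTHFS, CKLF-CMTM1, ATP6V1G2-DDX39B, KLRC4-KLRK1 and STIMATE-MUSTN1 held under every alternative that tested them. With no filter on low values the calls of NME1-NME2, DNAJC25-GNG10, ABHD14A-ACY1, JMJD7-PLA2G4B, MSANTD3-TMEFF1, PDXDC2P-NPIPB14P, PDCD6-AHRR and ARPC4-TTLL3 were lost, and with a pseudocount of 0.1 those of MSANTD3-TMEFF1 and ARPC4-TTLL3. The ARPC4-TTLL3 call was also lost with a pseudocount of 0.5, with median-ratio scaling and without the variance trend. Read depth is unknown, so no counting error can be given.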
